A study of Mus musculus with 20 samples.

Results

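At E11.5 the mouse heart has atria, an atrioventricular canal, left and right ventricles and an outflow tract. RNA-seq of dissected right ventricle and outflow tract (RV/OFT) was compared with RNA-seq of whole hearts in embryos that carried Cre and 1 floxed Kmt2d allele. The members of the comparison were chosen by their labels: 3 RV/OFT libraries titled Mef2cAHF::Cre WT and 3 whole-heart libraries titled Tnnt2::Cre WT, which are 6 of the 20 libraries of the series. The comparison was repeated with the 3 RV/OFT libraries titled Mef2cAHF::Cre mutant, which brings it to 9 libraries, and 3 whole hearts titled Tnnt2::Cre mutant were set beside them. All were C57BL/6 embryos from crosses of Cre;Kmt2d fl/+ males with Kmt2d fl/fl;mTmG/mTmG females. A control was Cre;Kmt2d fl/+;mTmG/+, so the controls lacked 1 Kmt2d allele in the cells in which Cre was active, and a mutant was Cre;Kmt2d fl/fl;mTmG/+. Mef2cAHF::Cre is active in precursors of the anterior heart field, which give rise to the right ventricle and outflow tract, and Tnnt2::Cre in cardiomyocytes. mTmG is a fluorescent reporter of Cre activity.

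The column names of the count table call each Mef2cAHF::Cre library by the genotype opposite to its title. Groups here follow the titles and are named RV/OFT libraries labelled control and labelled mutant. A gene is counted below as called in both comparisons only when it passed the test in the same direction with each of the groups. Kmt2d (Mll2 in the table) was counted over the whole gene and not only over the floxed exons, and whether its level settles the labels was not tested. It had 140, 149 and 150 CPM (counts scaled to library size) in the RV/OFT libraries labelled control, 178, 179 and 187 in those labelled mutant, 166, 156 and 124 in whole-heart controls and 113, 117 and 121 in whole-heart mutants. Within the Mef2cAHF::Cre line the libraries labelled mutant were thus the higher ones, while within Tnnt2::Cre the mutants were the lower ones. The study reported less Kmt2d transcript by qRT-PCR in mutants of both lines. Between the labelled controls and the whole-heart controls Kmt2d did not pass the test (log2 fold change -0.0068, SE 0.11, adjusted p = 0.969), while it was called higher in the repeat (0.31, adjusted p = 0.03) and with the labelled mutants against the whole-heart mutants (0.65, adjusted p = 0.000577).

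The 4 groups differed in more than region. The RV/OFT libraries and the whole hearts came from different Cre lines, were dissected differently and were sequenced as separate groups, so region, line, dissection and sequencing group cannot be told apart in any of these comparisons. Genotype may differ as well, because titles and column names conflict. By the column names, labelled controls against whole-heart controls would set mutant RV/OFT against control hearts. Labelled mutants against whole-heart mutants would then set control RV/OFT against mutant hearts, and only the repeat would match in genotype. A whole heart also contains its own right ventricle and outflow tract, so the comparison is of a region with the organ that includes it. Total counts ranged from 25001020 to 27568922 in the labelled controls, from 28122321 to 37165163 in the labelled mutants, from 36809972 to 45341870 in the whole-heart controls and from 35379996 to 44165532 in the whole-heart mutants. Hemoglobin genes took 0.8121% to 3.214% of the counts in the labelled controls, 2.449% to 4.528% in the labelled mutants, 9.047% to 14.65% in whole-heart controls and 2.073% to 11.79% in whole-heart mutants. Male embryos numbered 1 of 3, 0 of 3, 2 of 3 and 1 of 3 in these groups, read from Y-linked genes. On the first principal component of log2 CPM, which held 42.2% of the variance, the 6 RV/OFT libraries (30.14 to 59.52) were separate from the 6 whole hearts (-57.08 to -19.49). On the second (14.6%), the labelled controls scored 1.687 to 38.9 and the whole-heart mutants 8.231 to 45.75, with replicate 2 highest in each. The labelled mutants scored -33.07 to -19.51 and the whole-heart controls -22.55 to -5.445. Libraries labelled mutant thus scored below those labelled control in Mef2cAHF::Cre, and mutants above controls in Tnnt2::Cre. Nothing in the labels says whether a library is 1 embryo, and the p-values measure the spread between these libraries.

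**Figure D1:**
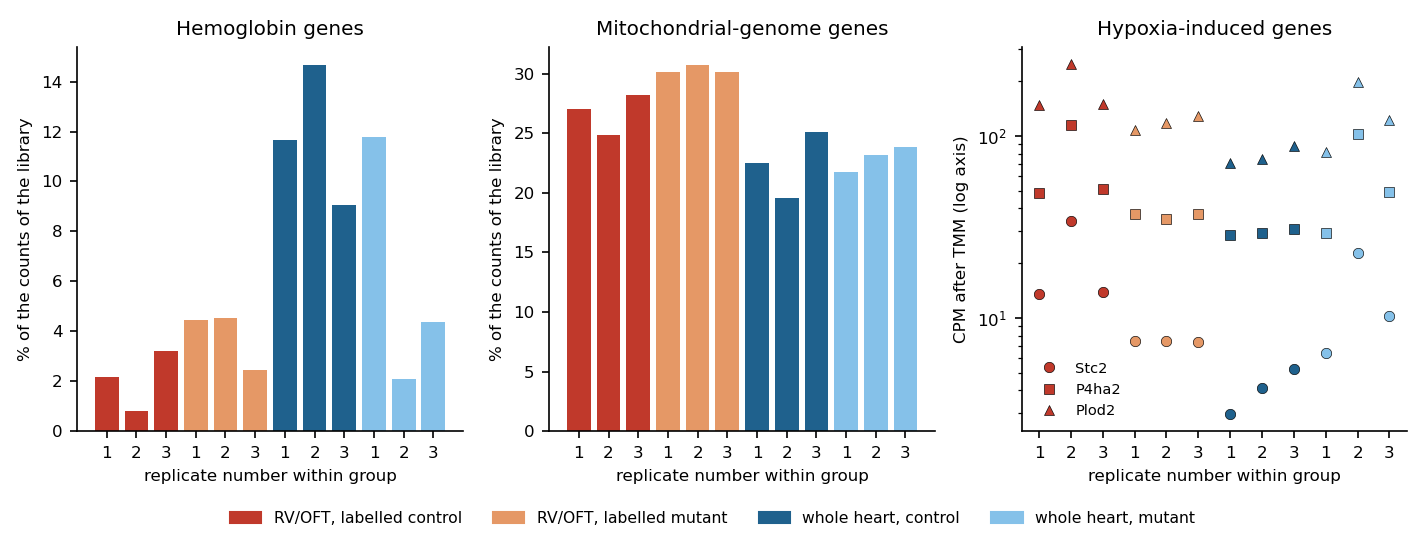
Percentage of counts in hemoglobin genes (left) and mitochondrial-genome genes (middle), and CPM of Stc2, P4ha2 and Plod2 (right, log axis), in each of the 12 E11.5 libraries, with colours for the 4 groups. Hemoglobin ran from 9.047% to 14.65% in the whole-heart controls and from 0.8121% to 4.528% in RV/OFT, and the 3 hypoxia-induced genes were highest in labelled-control replicate 2 within their group and in whole-heart mutant replicate 2 among the whole hearts.

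Heart chambers form from distinct progenitor fields. The first heart field gives rise mainly to the left ventricle and parts of the atria, and the second heart field adds the right ventricle and outflow tract at the arterial pole and more of the atria at the venous pole. Atrial and ventricular cardiomyocytes use different contractile proteins and ion channels, and pacemaker cells of the sinus node arise at the venous pole. The outflow tract also holds cushion mesenchyme and smooth muscle, part of which descends from the neural crest, and it is later divided into aorta and pulmonary trunk.

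Of 18212 genes tested, 6772 (37.2%) passed an adjusted p of 0.05 (edgeR quasi-likelihood test, Benjamini-Hochberg) between the labelled controls and the whole-heart controls, 3128 (17.2%) higher and 3644 (20.0%) lower in RV/OFT. Such genes are referred to as called. Genes named below beyond the naming rule were chosen for their known roles after their values were seen. A log2 fold change is positive where RV/OFT was higher, and the median size over the called genes was 0.73. In the repeat 6661 genes (36.6%) were called, 2942 (16.2%) higher and 3719 (20.4%) lower. The comparisons share the 3 whole-heart controls. In both, 4998 genes (27.4%) were called in 1 direction, 2141 (11.8%) higher and 2857 (15.7%) lower, and 31 (0.170%) were called in opposite directions. A fold of at least 2 in both was found for 459 genes that were higher (2.52%) and 583 that were lower (3.20%). With the labelled mutants against the whole-heart mutants, which shares no library with the first comparison, 5655 genes (31.1%) were called, 2584 (14.2%) higher and 3071 (16.9%) lower, and 3132 genes (17.2%) were called in 1 direction in all 3 comparisons, 1375 (7.55%) higher and 1757 (9.65%) lower. With 6 RV/OFT libraries against 6 whole hearts, a comparison that stays the same whichever Mef2cAHF::Cre libraries are the mutants, 8987 genes (49.3%) were called, 4300 (23.6%) higher and 4687 (25.7%) lower. In 4432 genes (24.3%) the CPM of the 6 RV/OFT libraries did not overlap those of the 6 whole hearts, 1938 (10.6%) with RV/OFT above and 2494 (13.7%) with RV/OFT below. Counts of list members given below are to be read beside these shares of all genes.

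The split into higher and lower depended on the unit. On the counts 46.2% of the called genes were higher in the labelled controls, and on the deposited FPKM, which are divided by the library total and not scaled by TMM, 70.2% were (5001 higher and 2123 lower, median log2 difference of all genes 0.23). For the labelled mutants the shares were 44.2% on counts and 57.1% on FPKM, for the comparison without shared libraries 45.7% and 38.6%, and for 6 against 6 libraries 47.8% and 60.4%. Gene length and base composition moved with the direction too. In the quartile of longest genes 29.8% were called higher and 12.8% lower, and in the quartile of shortest genes 10% and 22.9%. In the quartile of lowest GC content 25.2% were called higher and 14.3% lower, and in the highest quartile 10.3% and 30.2%. The part of length and GC content in single genes was not tested, but the results with offsets for each are given with the other alternatives.

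**Figure D2:**
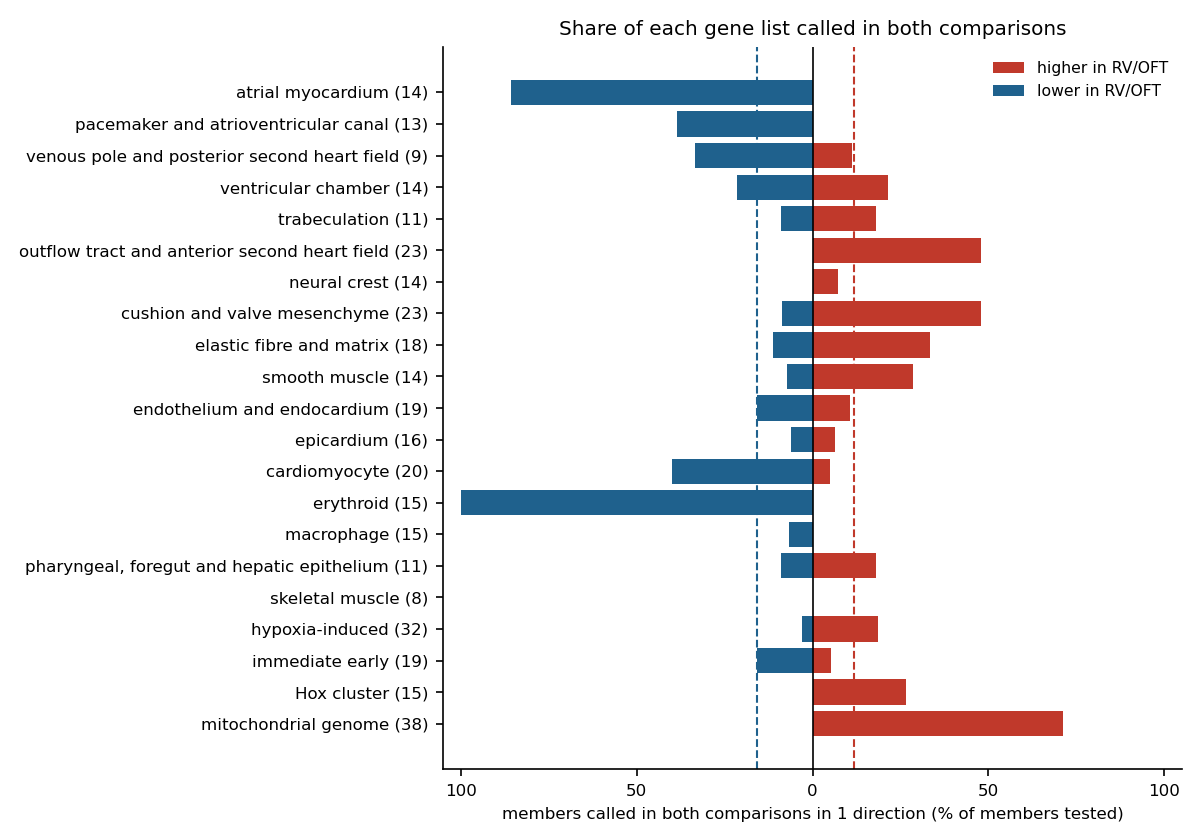
Share of the tested members of each gene list (number in brackets) that were called in both comparisons, higher in RV/OFT to the right (red) and lower to the left (blue), with dashed lines at the shares over all genes tested, 11.8% higher and 15.7% lower. The atrial (12 of 14) and erythroid (15 of 15) lists lay furthest below, and the outflow tract list (11 of 23), the cushion list (11 of 23) and the mitochondrial genome (27 of 38) furthest above.

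Most atrial genes were lower in RV/OFT. Of 14 atrial myocardial genes tested, 12 were called lower in both comparisons and 0 higher, against 15.7% and 11.8% of all genes, and 11 of the 14 had all 6 RV/OFT libraries below all 6 whole hearts. The median log2 fold change of the list was -1.74 in the labelled controls, -1.30 in the labelled mutants and -1.25 without shared libraries, where the medians of all genes were 0.02, 0.00466 and -0.00196. In 10 of the 14 the call was made in all 3 comparisons, against 9.65% of all genes called lower in all 3. The summed CPM of the list ran from 1660 to 2379 in the labelled controls, from 2594 to 2968 in the labelled mutants, from 5648 to 7807 in whole-heart controls and from 6862 to 7427 in whole-heart mutants. In bulk RNA fewer atrial cells and less atrial RNA per cell cannot be told apart.

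Myl7 (mm9 chr11:5796640-5798785, - strand), the atrial regulatory myosin light chain, had 521, 430 and 692 CPM in the labelled controls, 785, 659 and 685 in the labelled mutants, 1620, 1400 and 1950 in whole-heart controls and 1850, 1860 and 2000 in whole-heart mutants. Its log2 fold change was -1.58 (SE 0.19, adjusted p = 0.000295) in the labelled controls and -1.21 (adjusted p = 6.82e-05) in the repeat. Myl4 (mm9 chr11:104411977-104457067, + strand), the atrial essential light chain, had 993, 701 and 1150 CPM in the labelled controls, 1490, 1300 and 1460 in the labelled mutants, 3870, 3020 and 4430 in whole-heart controls and 3680, 3180 and 3870 in whole-heart mutants (log2 fold change -1.98, SE 0.21, adjusted p = 0.000154). In both genes every RV/OFT library lay below every whole heart, and in Myl4 the labelled mutants lay above the labelled controls. Nppa, which encodes atrial natriuretic factor, had 120, 116 and 57.6 CPM in the labelled controls, 79.7, 77.6 and 77.4 in the labelled mutants, 343, 427 and 545 in whole-heart controls and 607, 803 and 612 in whole-heart mutants (log2 fold change -2.15, SE 0.27, adjusted p = 0.000348; -2.47 in the repeat and -3.09 without shared libraries). Its value is uncertain, since 61.5% of its exonic length lies opposite another annotated gene and the sources used here do not say whether strand was used in counting.

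The other atrial members ranged widely in level. Stard10, a lipid transfer protein, had 1.81, 2.21 and 1.82 CPM in the labelled controls, 2.39, 2.57 and 3.32 in the labelled mutants and 15.2, 14.3 and 14.4 in whole-heart controls (log2 fold change -2.89, SE 0.15, adjusted p = 7e-06). Sln, the atrial regulator sarcolipin of the calcium pump, was at the edge of detection, with 0.134, 0.104 and 0.0744 CPM in the labelled controls, 0.485, 0.393 and 0.374 in the labelled mutants and 1.92, 1.39 and 2.22 in whole-heart controls (log2 fold change -4.07, SE 0.42, adjusted p = 0.000143), and it did not pass the test without shared libraries (-1.18, adjusted p = 0.0675). The COUP transcription factors Nr2f1 and Nr2f2, of which Nr2f2 is known to specify atrial identity, were lower by -1.47 and -1.21 on the log2 scale, and the 6 RV/OFT libraries had at most 16 CPM of Nr2f2 where the 6 whole hearts had at least 31.1. The potassium channel genes Kcna5 (-1.90), Kcnj3 (-1.94) and Kcnj5 (-1.03) were also called lower, Kcnj3 with 31.1% of its exonic length opposite another gene. Pam, a peptide-processing enzyme of atrial granules, was the remaining member called (-0.67). Cacna2d2, a calcium channel subunit, was called lower in both comparisons (-2.20 and -0.79) and not without shared libraries (-0.37, adjusted p = 0.103). Angpt1, an angiopoietin made by atrial myocardium, was the exception: it was called lower in the labelled controls (-0.67) and higher in the labelled mutants (0.40). Its levels were 33.2, 31.1 and 34.6 CPM in the labelled controls, 74.7, 65.5 and 66.5 in the labelled mutants and 53.8, 50.8 and 53.8 in whole-heart controls. Dkk3 was not called in either (0.074 and 0.0078) and was called lower without shared libraries (-0.60).

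**Figure D3:**
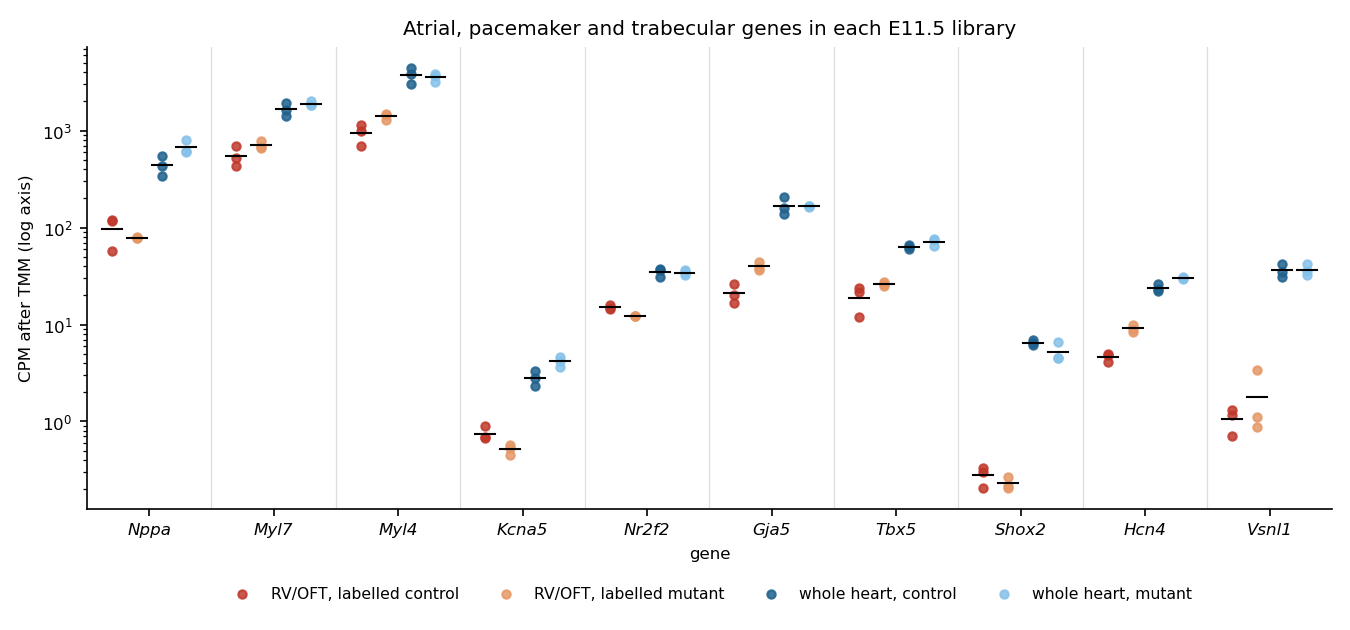
CPM (log axis) of 10 atrial, pacemaker and trabecular genes in each E11.5 library, as points coloured by group, with a bar at the mean of the 3 libraries of each group. For each of these genes all 6 RV/OFT libraries lay below all 6 whole hearts; Vsnl1 had 0.707 to 3.4 CPM in RV/OFT and 31 to 42.2 CPM in whole hearts.

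Sequence upstream of 2 of these genes is shown because T-box factors and NKX2-5 are known regulators of atrial and conduction genes. A T-box core (GTGTGA) and an NKX2-5 core (AAGTG) were searched on both strands in the 250 bases before the annotated start in RefSeq promoters (GRCm38.p6). The letters of the T-box core occur in 12.3% of 32851 promoters and those of the NKX2-5 core in 40.7%. Of the 14 atrial genes 11 had a promoter in the table, 4 with the T-box core and 4 with the NKX2-5 core. A match is a description of letters and not a site. Nppa (chr4:148000472-148000721, + strand) held 1 T-box core and 2 NKX2-5 cores, and Gja5 (chr3:97032152-97032401, + strand) 0 and 1, given in capitals on the strand of the gene:
Nppa: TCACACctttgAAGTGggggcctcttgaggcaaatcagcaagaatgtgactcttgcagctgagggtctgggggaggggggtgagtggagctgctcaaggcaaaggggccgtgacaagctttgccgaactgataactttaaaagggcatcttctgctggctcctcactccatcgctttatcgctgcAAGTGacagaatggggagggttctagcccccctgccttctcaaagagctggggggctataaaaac
Gja5: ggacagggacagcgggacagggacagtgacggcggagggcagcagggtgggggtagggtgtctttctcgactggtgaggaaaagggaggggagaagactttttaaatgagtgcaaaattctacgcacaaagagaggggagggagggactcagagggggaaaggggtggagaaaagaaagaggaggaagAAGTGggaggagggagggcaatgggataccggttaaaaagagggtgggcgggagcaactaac

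Of 13 pacemaker and atrioventricular canal genes, 5 were called lower in both comparisons and 0 higher, against 15.7% and 11.8% of all genes. Without shared libraries 6 were called lower and 1, Gjc1, higher, against 16.9% and 14.2% of all genes. The summed CPM ran from 146.2 to 178 in the 6 RV/OFT libraries and from 224.3 to 275.9 in the 6 whole hearts. Shox2 (mm9 chr3:66777193-66785693, - strand), a homeobox factor needed for the sinus node, had 0.301, 0.207 and 0.335 CPM in the labelled controls, 0.208, 0.214 and 0.267 in the labelled mutants, 6.95, 6.45 and 6.08 in whole-heart controls and 4.53, 6.64 and 4.51 in whole-heart mutants (log2 fold change -4.50, SE 0.24, adjusted p = 1.06e-05). Hcn4 (mm9 chr9:58671319-58708762, + strand), the pacemaker channel, had 4.85, 4.14 and 4.95, 9.98, 8.4 and 9.07, 26, 22.4 and 23.1 and 30.8, 30.2 and 29.5 CPM in the same order (log2 fold change -2.34, SE 0.13, adjusted p = 1.08e-05). Both genes were separated by region in every library, and Hcn4 was higher in each labelled mutant than in each labelled control. Vsnl1 (mm9 chr12:11332064-11443384, - strand), a neuronal calcium sensor also found in the sinus node, had 1.31, 1.17 and 0.707 CPM in the labelled controls and 42.2, 35.1 and 31 in whole-heart controls (log2 fold change -5.06, SE 0.21, adjusted p = 3.09e-06; -4.35 in the repeat), the largest fall among the list genes in the labelled controls. Cpne5 (-2.13) and Tbx3, a T-box repressor of the working myocardial program (-0.62), were the other members called in both. The atrioventricular canal genes Bmp2 (-0.44, and 0.023 in the repeat) and Tbx2 (-0.20, and -0.71) were each called in 1 of the 2 comparisons, and Gjc1, a connexin, was called higher in the repeat (0.25) and without shared libraries (0.35) and not in the labelled controls (0.17).

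At the venous pole, Tbx5 (mm9 chr5:120284672-120334479, + strand), a T-box factor of the first heart field and the atria, had 23.6, 21.5 and 11.9 CPM in the labelled controls, 27.4, 26.3 and 25 in the labelled mutants, 63.1, 66.4 and 59.6 in whole-heart controls and 64.2, 74.1 and 76.8 in whole-heart mutants. The regions did not overlap, and the log2 fold change was -1.71 (SE 0.21, adjusted p = 0.000307) and -1.25 (adjusted p = 3.97e-06) in the repeat. Of the 9 genes of the venous pole and posterior second heart field, 3 were called lower in both, Tbx5 and the ligand gene Wnt2 (-2.64) among them, and Hoxa3 was called higher (2.20). Over all genes 15.7% were called lower and 11.8% higher in both. Without shared libraries 4 of the 9 were lower and 0 higher (median -1.11), against 16.9% and 14.2% of all genes. Hoxa3 was not called there (1.83, adjusted p = 0.111). Its RV/OFT libraries (1.8 to 6.49 CPM) overlapped the whole hearts (0.138 to 2.26 CPM). Reads of Hoxa3 are uncertain because 33% of its exonic length overlaps another gene of its strand.

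Ventricular genes did not move 1 way. Of 14 ventricular chamber genes 3 were called higher and 3 lower in both comparisons, against 11.8% and 15.7% of all genes. The median log2 fold change was -0.29 in the labelled controls and -0.06 in the repeat. Myh7 (mm9 chr14:55589525-55613471, - strand), the slow myosin heavy chain of the ventricles, was higher: it had 4290, 3380 and 3380 CPM in the labelled controls, 4260, 4030 and 4090 in the labelled mutants, 2380, 2560 and 2910 in whole-heart controls and 2780, 3070 and 3170 in whole-heart mutants (log2 fold change 0.51, SE 0.15, adjusted p = 0.0224; 0.67 in the repeat). Hey2, a Notch target of compact ventricular myocardium, had 51.6, 49.5 and 46 CPM in the labelled controls, 46.8, 48.9 and 51.6 in the labelled mutants, 33.8, 36 and 42.5 in whole-heart controls and 37.5, 36.7 and 39.2 in whole-heart mutants (log2 fold change 0.40, SE 0.11, adjusted p = 0.0156). Mpped2 was the third (0.48). Each of these 3 had no overlap between the 6 RV/OFT libraries and the 6 whole hearts, but the count called higher in both comparisons was 1 without labelled-control replicate 1, without whole-heart control replicate 1 or without whole-heart control replicate 2, and 0 with a required fold of 1.5.

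Hand1 (mm9 chr11:57642209-57646320, - strand), a basic helix-loop-helix factor of the left ventricle and outflow tract, had 18.2, 16 and 24.3 CPM in the labelled controls, 24.3, 20.4 and 26.3 in the labelled mutants, 38.7, 35.3 and 45.6 in whole-heart controls and 45.3, 28.9 and 37.4 in whole-heart mutants (log2 fold change -1.02, SE 0.16, adjusted p = 0.00112; -0.73 in the repeat). Hand2 (mm9 chr8:59799780-59803314, + strand), its relative of the right ventricle and second heart field, had 24.9, 27.1 and 32.4, 30.1, 34 and 35.1, 24.5, 26.8 and 33.3 and 24.6, 21.2 and 27.1 CPM in that order and was called in neither comparison (0.0093, adjusted p = 0.968, and 0.25, adjusted p = 0.126), while it was called higher without shared libraries (0.46, adjusted p = 0.0161). The ranges of Hand1 were apart in RV/OFT and whole hearts, and those of Hand2 overlapped. Cited1, a transcriptional coregulator, had 57, 43.7 and 19.3 CPM in the labelled controls, 147, 125 and 131 in the labelled mutants and 172, 207 and 287 in whole-heart controls, with log2 fold changes of -2.46 and -0.71. Myl3, the ventricular essential light chain, was lower by -1.16 (SE 0.15, adjusted p = 0.000395) and -0.86. Myl2, the ventricular regulatory light chain, was called lower in the labelled controls (-0.66, adjusted p = 0.00849) and not in the repeat (-0.25, adjusted p = 0.0633). The Iroquois factor Irx4, a marker of ventricular myocardium, was called in neither (-0.46, adjusted p = 0.0581, and 0.012, adjusted p = 0.946).

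Trabeculae, the ridges of muscle that line the ventricles, were represented by 11 genes, 2 called higher and 1 lower in both comparisons. The shares over all genes were 11.8% and 15.7% in both, and 14.2% and 16.9% without shared libraries. Without shared libraries 2 were called higher and 6 lower, with a median log2 fold change of -0.55, and the lower ones included the natriuretic peptide gene Nppb (-2.05) and the growth factor gene Bmp10 (-0.80). Gja5 (mm9 chr3:96708616-96881339, + strand), the connexin of atria and trabeculae, had 26.2, 20.1 and 16.7 CPM in the labelled controls, 38.3, 36.7 and 44.2 in the labelled mutants, 139, 161 and 206 in whole-heart controls and 163, 168 and 166 in whole-heart mutants. All 6 RV/OFT libraries lay below all whole hearts, with log2 fold changes of -2.99 (SE 0.19, adjusted p = 2.3e-05) and -2.07 (adjusted p = 4.85e-06). Nrg1, the endocardial ligand that drives trabeculation, was higher, with 27.9, 20.8 and 22.5 CPM in the labelled controls, 23.5, 23.2 and 22.6 in the labelled mutants, 10.1, 8.76 and 9.12 in whole-heart controls and 7.18, 8.33 and 11 in whole-heart mutants (log2 fold change 1.36, SE 0.14, adjusted p = 0.000133). Its receptors Erbb2 (-0.33 and -0.019) and Erbb4 (0.089 and 0.40) were each called in 1 comparison only. Adamts1, a protease of cardiac matrix, was called higher in both (0.52 and 0.53).

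Of 25 listed genes of the outflow tract and anterior second heart field, 23 passed the filter on low counts (Fgf8 and Tdgf1 did not). Of these 11 were called higher and 0 lower in both comparisons, 8 of them also without shared libraries, where the list had 11 higher and 1 lower calls, and the summed CPM ran from 1052 to 1156 in RV/OFT and from 746.3 to 889 in whole hearts. Over all genes 11.8% were called higher and 15.7% lower in both, and 7.55% higher in all 3. Without shared libraries the shares were 14.2% and 16.9%. The median log2 fold change of the list was 0.43, 0.38 and 0.29 in the 3 comparisons. Without labelled-mutant replicate 3, and with a required fold of 1.5, the count in both fell to 7.

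Isl1 (mm9 chr13:117088489-117099896, - strand), the LIM-homeobox factor of second heart field progenitors, had 15.4, 20.2 and 15 CPM in the labelled controls, 8.22, 13.4 and 14.8 in the labelled mutants, 3.95, 3.12 and 3.98 in whole-heart controls and 1.4, 2.93 and 1.72 in whole-heart mutants (log2 fold change 2.21, SE 0.17, adjusted p = 5.46e-05; 1.73 in the repeat and 2.60 without shared libraries). Bmp4 (mm9 chr14:47003195-47010344, - strand), a ligand needed for outflow septation, had 66.7, 91.5 and 81.9, 72.7, 87.2 and 85.4, 36.2, 34.5 and 35.4 and 24.3, 29.5 and 24.2 CPM in that order (log2 fold change 1.19, SE 0.12, adjusted p = 0.000116; 1.23 in the repeat). Sema3c (mm9 chr5:17080634-17236086, + strand), a semaphorin that guides neural crest cells into the outflow tract, had 71.6, 64.4 and 66.3, 71.2, 70 and 74.4, 29, 27.8 and 30.9 and 20.1, 16.8 and 24.4 CPM (log2 fold change 1.22, SE 0.09, adjusted p = 4.46e-05; 1.32 in the repeat). In each of the 3 genes every RV/OFT library lay above every whole heart. Of the semaphorin receptors, the plexin Plxna2 (0.44 and 0.57) and the neuropilin Nrp2 (1.25 and 0.54) were called higher in both, and Nrp1 (0.17 and 0.11) and Plxnd1 (0.22 and 0.098) in neither.

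The remaining calls in this list included Foxc1 (0.75), Lbh (0.59), Wnt5a (0.34) and Mef2c (0.35), the last being the gene whose anterior heart field enhancer drives Cre in the RV/OFT line. Tbx1, a T-box factor of the second heart field and pharynx, had 0.502, 0.932 and 0.781 CPM in the labelled controls, 0.104, 0.214 and 0.588 in the labelled mutants, 0.0234, 0.116 and 0.0304 in whole-heart controls and 0.05, 0.0519 and 0.0277 in whole-heart mutants, so its 3.67 (SE 0.64, adjusted p = 0.00187) rests on few reads, and its groups overlapped. With 6 reads over the whole-heart controls and 5 over the whole-heart mutants, Tbx1 passed the filter on low counts only through RV/OFT. It is among the 11 genes of the list called higher in both. Wnt11, a ligand of outflow myocardium, was called lower in the labelled controls (-0.73, adjusted p = 0.0088) and not in the repeat (-0.35, adjusted p = 0.0642). Rspo3, a secreted Wnt agonist, had 21.8, 15.1 and 20.6 CPM in the labelled controls, 33.2, 33.1 and 31.6 in the labelled mutants, 27, 23 and 26.2 in whole-heart controls and 13.2, 14.4 and 18.8 in whole-heart mutants. It was not called in the labelled controls (-0.39, adjusted p = 0.0574) and was called higher in the repeat (0.38) and without shared libraries (1.10). Of the 14 neural crest genes tested, of 16 listed, Tfap2a was called higher in both (2.18 and 1.49, with 2.21, 4.07 and 3.24 CPM in the labelled controls and 0.585, 0.838 and 0.7 in whole-heart controls) and 0 were called lower in both. Over all genes 11.8% were called higher and 15.7% lower in both. In the labelled controls 4 of the 14 were called higher and 1 lower. Without shared libraries 4 were higher and 0 lower (median 1.12), against 14.2% and 16.9% of all genes. The summed CPM of the list ran from 212.4 to 265.1 in RV/OFT and from 215.9 to 300.8 in whole hearts.

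**Figure D4:**
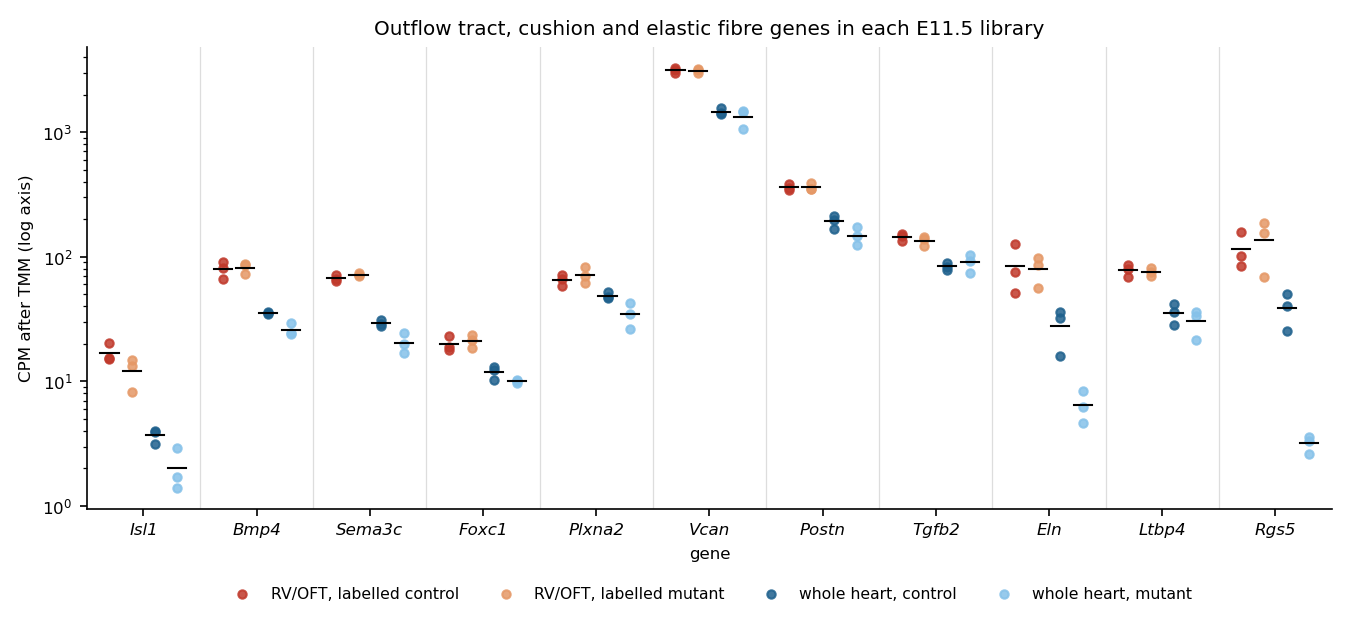
CPM (log axis) of 11 outflow tract, cushion, elastic fibre and mural genes in each E11.5 library, as points coloured by group, with a bar at the mean of the 3 libraries of each group. For each of these genes all 6 RV/OFT libraries lay above all 6 whole hearts; Vcan had 2980 to 3270 CPM in RV/OFT and 1060 to 1550 CPM in whole hearts.

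Of 23 cushion and valve mesenchyme genes 11 were called higher and 2 lower in both comparisons, 9 of the 11 also without shared libraries, and the median log2 fold change was 0.54, 0.55 and 0.68. The summed CPM of the list ran from 5875 to 6417 in RV/OFT and from 2594 to 3725 in whole hearts. The count of 11 fell to 6 without whole-heart control replicate 1 and to 7 with a required fold of 1.5. Vcan (mm9 chr13:89794915-89882117, - strand), the proteoglycan versican of the cardiac jelly, had 2980, 3140 and 3270 CPM in the labelled controls, 3230, 3140 and 2990 in the labelled mutants, 1550, 1390 and 1420 in whole-heart controls and 1060, 1480 and 1450 in whole-heart mutants (log2 fold change 1.12, SE 0.12, adjusted p = 0.00014; 1.12 in the repeat). Postn, a matricellular protein of maturing cushions, had 346, 380 and 358, 349, 352 and 388, 168, 197 and 211 and 124, 172 and 146 CPM in that order (log2 fold change 0.93, SE 0.11, adjusted p = 0.000268). Both genes were separated by region in all 12 libraries. Tgfb2 (0.80), a ligand for the conversion of endocardium into mesenchyme, the receptor Pdgfra (0.85), the transcription factor Snai2 (0.67), Has2, which makes hyaluronan (0.60), and the collagen Col3a1 (1.00) were called higher in both. Sox9 (0.26 and 0.12) and Twist1 (0.12 and -0.082), factors of cushion mesenchyme, were called in neither. The 2 lower members were Msx2 (-1.31) and Snai1 (-0.82).

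Genes of elastic fibres, which make up the walls of the great arteries, included 6 of 18 called higher and 2 lower in both comparisons, against 11.8% and 15.7% of all genes. The 6 were also called without shared libraries. Eln (mm9 chr5:135178466-135223124, - strand), elastin, had 75.4, 127 and 51.6 CPM in the labelled controls, 56.3, 97.9 and 86.6 in the labelled mutants, 16.1, 35.8 and 32 in whole-heart controls and 4.65, 8.41 and 6.2 in whole-heart mutants (log2 fold change 1.62, SE 0.34, adjusted p = 0.00519; 1.54 in the repeat and 3.66 without shared libraries). The RV/OFT libraries differed among themselves, but none was as low as the highest whole heart. Fbln5, an elastic fibre assembly protein, had 43.7, 70.8 and 15.9, 33.7, 62.7 and 49.2, 5.24, 21.5 and 18.4 and 0.75, 2.31 and 1.22 CPM, with overlapping groups and a call near the threshold (log2 fold change 1.55, SE 0.55, adjusted p = 0.0485). Fbn1, which encodes fibrillin (0.91, with 20.1% of its exonic length opposite another gene), Ltbp4 (1.16), Ltbp1 (0.47) and Fbln2 (0.49) were the other 4, and Mfap2 (-0.85) and Loxl1 (-0.89) were lower.

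Of 14 smooth muscle genes 4 were called higher and 1 lower in both comparisons, and 4 higher and 5 lower without shared libraries. The shares over all genes were 11.8% and 15.7% in both, and 14.2% and 16.9% without shared libraries. The summed CPM ran from 1739 to 2105 in RV/OFT, from 1614 to 2521 in whole-heart controls and from 2451 to 2814 in whole-heart mutants. Rgs5, a marker of pericytes and smooth muscle, had 84, 158 and 101 CPM in the labelled controls, 68.2, 155 and 188 in the labelled mutants, 25.4, 39.9 and 50.5 in whole-heart controls and 2.6, 3.61 and 3.32 in whole-heart mutants (log2 fold change 1.58, SE 0.27, adjusted p = 0.00173; 1.85 in the repeat and 5.45 without shared libraries). Each whole-heart mutant was below each whole-heart control, and all RV/OFT libraries lay above both. Notch3 (1.18), Pdgfrb (0.89) and Cald1 (1.06) were the other members called higher in both, and Cnn1, calponin, was lower (-0.87). Acta2 (-0.58, adjusted p = 0.0659), Tagln (0.30, adjusted p = 0.341) and Myh11 (-0.086, adjusted p = 0.835) were called in neither comparison. Without shared libraries all 3 were called lower: Acta2 at -0.90 (adjusted p = 0.00111), Tagln at -0.61 (adjusted p = 0.00556) and Myh11 at -2.29 (adjusted p = 0.0113).

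Of 20 genes common to cardiomyocytes, 8 were called lower in both comparisons and in all 3, and 1 higher (Actn2, 0.50). Without shared libraries 2 were called higher and 10 lower. Over all genes 11.8% were called higher and 15.7% lower in both, and 7.55% and 9.65% in all 3. Without shared libraries these shares were 14.2% and 16.9%. The median log2 fold change was -0.42, -0.30 and -0.38. Tnni3, cardiac troponin I, had 58.7, 49.9 and 58.2 CPM in the labelled controls, 126, 109 and 119 in the labelled mutants, 240, 227 and 303 in whole-heart controls and 168, 195 and 179 in whole-heart mutants (log2 fold change -2.19, SE 0.13, adjusted p = 1.46e-05; -1.11 in the repeat). Actc1, cardiac actin (-0.79), Csrp3 (-0.76), Tnni1 (-0.57 in the repeat), Ldb3 (-0.65), Nkx2-5 (-0.98) and Atp2a2, the calcium pump (-0.42), were also lower. Tnnc1 was the eighth (-0.95), and it is uncertain because all of its exonic length overlaps another gene of its strand. Tnnt2, whose promoter drives Cre in the whole-heart line, had 1920, 1390 and 1350 CPM in the labelled controls, 1900, 1740 and 1860 in the labelled mutants, 1280, 1590 and 1860 in whole-heart controls and 1810, 2030 and 1740 in whole-heart mutants, with overlapping ranges and no call in either comparison (-0.0065 and 0.23). Myh6, the atrial myosin heavy chain, was called lower in the repeat only (-0.54, adjusted p = 0.0989, and -0.35, adjusted p = 0.0303), titin (Ttn) was called higher in the repeat only (0.45 and 0.64), and Ryr2 and Gata4 were called in neither. On FPKM with a pseudocount of 0.1 the labelled-control comparison called 5 of the 20 higher and 7 lower.

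Lists for other cells were also examined. Over all genes 11.8% were called higher and 15.7% lower in both comparisons, and 14.2% and 16.9% without shared libraries. The endothelial counts were near the shares in both. Of 19 endothelial and endocardial genes 2 were called higher (Emcn, 0.79, and Flt1, 0.78) and 3 lower (Plvap, -1.27, Egfl7, -0.62, and Kdr, -0.29) in both comparisons, the summed CPM ran from 792.6 to 899.8 in RV/OFT and from 793.2 to 999.5 in whole hearts, and Pecam1 (0.17) and Cdh5 (-0.01), which define endothelium, were called in neither. Without shared libraries 2 of the 19 were called higher and 2 lower. Emcn (-0.22, adjusted p = 0.331) and Flt1 (-0.063, adjusted p = 0.831) were not called there. Of 16 epicardial genes 1 was called higher (C3, 1.59) and 1 lower (Tcf21, -0.53) in both comparisons, and Wt1 was called in neither (0.16). Without shared libraries 6 of the 16 were called lower and 0 higher (median -0.46), with summed CPM of 275.9 to 286 in the labelled mutants and 331.2 to 454.9 in whole-heart mutants. Of 15 macrophage genes 0 were called higher and 1 lower (Lyz2, -1.12), and their summed CPM ran from 60.76 to 257.5 in RV/OFT and from 133.7 to 522.5 in whole hearts. Without shared libraries 8 of the 15 macrophage genes were called lower and 0 higher (median -0.94), among them C1qa (-1.72) and Pf4 (-3.53). Of 8 skeletal muscle genes tested 0 were called in both, and 2 were called higher without shared libraries. Of 11 pharyngeal, foregut and hepatic genes tested, Cdh1 and Epcam, which mark epithelium, were called higher (3.73 and 2.48) and Apoa2, an apolipoprotein, lower (-2.03), at 0.803, 2.31 and 0.186 CPM of Cdh1 in the labelled controls and 0.117, 0.0867 and 0.0304 in whole-heart controls. These levels are low, the foregut markers Foxa2 and Shh did not pass the filter on low counts, and the summed CPM of the list was 3.012 to 8.94 in RV/OFT and 3.528 to 14.58 in whole hearts. The part of such cells in other results was not tested. Cdh1 had 9 reads over the whole-heart controls and 8 over the whole-heart mutants, so it passed the filter on low counts only through RV/OFT.

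Of 39 Hox genes 15 passed the filter and 4 of them (Hoxa2, Hoxa3, Hoxb3 and Hoxd3), which are anterior members used by neural crest and pharyngeal mesenchyme, were called higher in both comparisons, and 0 lower. Without shared libraries 2 of the 15 were called higher and 2 lower. The shares over all genes were 11.8% higher and 15.7% lower in both, and 14.2% and 16.9% without shared libraries. Hoxa2 had 3.21, 13.8 and 6.66 CPM in the labelled controls, 2.98, 5.83 and 6.74 in the labelled mutants, 0.842, 1.56 and 0.882 in whole-heart controls and 0.325, 2.36 and 0.498 in whole-heart mutants (log2 fold change 2.87, SE 0.49, adjusted p = 0.00172). Labelled-control replicate 2 was the highest of all libraries for each of the 4. Hoxd3 (29.8% on its own strand) and Hoxb3 (37.9% on the other) share exonic length with other genes and are uncertain, like Hoxa3. The count of 4 fell to 2 without labelled-mutant replicate 2 or 3 or without whole-heart control replicate 1 or 3.

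Genes of red blood cells were lower in RV/OFT than in the whole-heart controls, as was the hemoglobin share given above. Of 15 erythroid genes tested 15 were called lower in both comparisons, against 15.7% of all genes. Their median log2 fold change was -2.36 in the labelled controls and -1.52 in the repeat. Without shared libraries the median was -0.57 and 0 of the 15 were called in that direction in all 3 comparisons, against 9.65% of all genes. Hbb-y, an embryonic beta-like globin, had 5840, 2160 and 8750 CPM in the labelled controls, 15000, 16200 and 8070 in the labelled mutants, 54200, 76700 and 48100 in whole-heart controls and 57600, 8120 and 18300 in whole-heart mutants (log2 fold change -3.40, SE 0.45, adjusted p = 0.000462). The labelled controls and labelled mutants all lay below the whole-heart controls, and whole-heart mutant replicate 2 lay within the range of the RV/OFT libraries. Summed over the list, the labelled controls ran from 7278 to 31940 CPM, the labelled mutants from 25040 to 46550, the whole-heart controls from 102900 to 161200 and the whole-heart mutants from 19360 to 132700. In 1 fit of the 4 groups 7 of the 15 were called in both.

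Of 38 genes of the mitochondrial genome 27 were called higher and 0 lower in both comparisons, 18 of them in all 3, and their share of the counts was 24.81% to 30.69% in RV/OFT and 19.53% to 25.11% in whole hearts. Over all genes 11.8% were called higher and 15.7% lower in both, and 7.55% higher in all 3. After TMM scaling the summed CPM overlapped between the labelled controls (214100 to 272700) and the whole-heart controls (211200 to 281100), and was 299600 to 308500 in the labelled mutants and 212700 to 239800 in whole-heart mutants. The members did not move alike: mt-Nd5, a subunit of complex I, had 6130, 4010 and 4360 CPM in the labelled controls, 5170, 4840 and 4730 in the labelled mutants, 1140, 1360 and 1390 in whole-heart controls and 1870, 2120 and 1310 in whole-heart mutants (log2 fold change 1.91, SE 0.18, adjusted p = 0.000102), and the ribosomal RNA mt-Rnr2, the most abundant by CPM, was called in neither comparison (-0.45, adjusted p = 0.137, and -0.12, adjusted p = 0.551). With sex as a covariate 17 members were called higher in both.

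Genes induced by low oxygen differed between libraries of 1 group. Of 32 such genes, 11 were called higher and 1 lower in the labelled controls, 6 higher and 1 lower in both comparisons, and 0 were called higher in all 3. Without shared libraries 0 were called higher and 14 lower, and the median log2 fold change went from 0.44 in the labelled controls to -0.05 in the repeat and -0.73 without shared libraries. Stc2, a secreted glycoprotein, had 13.5, 34.2 and 13.9 CPM in the labelled controls, 7.42, 7.51 and 7.41 in the labelled mutants, 2.97, 4.1 and 5.26 in whole-heart controls and 6.38, 22.8 and 10.3 in whole-heart mutants (log2 fold change 2.34, SE 0.37, adjusted p = 0.00109; -0.80, adjusted p = 0.162, without shared libraries). P4ha2, a collagen prolyl hydroxylase, had 48.7, 115 and 51.2, 37, 34.9 and 37.2, 28.7, 29.3 and 30.7 and 29.3, 102 and 49.3 CPM in that order. In both genes labelled-control replicate 2 was the highest RV/OFT library and whole-heart mutant replicate 2 the highest whole heart. Without labelled-control replicate 2 the list had 11 higher and 3 lower calls with a median of 0.14. Without whole-heart control replicate 3 the count higher in both was 11, and in 1 fit of the 4 groups it was 0. Of 19 immediate early genes 1 was called higher (Jun, 0.43) and 3 lower in both (Socs3, -1.77, Btg2, -1.29, and Ier2, -1.13). Without shared libraries 0 were called higher and 8 lower (median -0.51), Fos (-2.01) among them. For both lists the shares over all genes were 11.8% higher and 15.7% lower in both comparisons, and 14.2% and 16.9% without shared libraries.

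**Figure D5:**
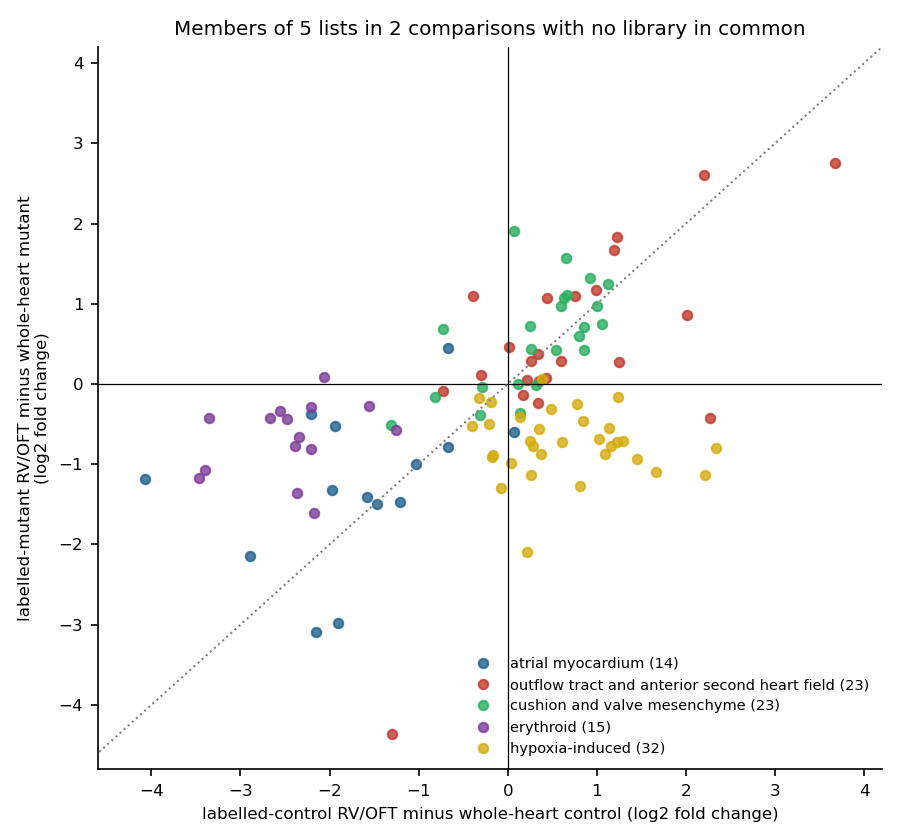
Log2 fold change of each tested member of 5 gene lists in the labelled-control RV/OFT libraries against whole-heart controls (x axis) and in the labelled-mutant RV/OFT libraries against whole-heart mutants (y axis), 2 comparisons with no library in common, with a dotted line at equality. Atrial genes lay mostly at lower left (medians -1.74 and -1.25) and cushion genes at upper right (0.54 and 0.68), while erythroid genes had a median of -2.36 on the x axis and -0.57 on the y axis and hypoxia-induced genes had medians of opposite sign (0.44 and -0.73).

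The largest differences included unnamed gene models and genes of other tissues. Ranking was limited to genes that were called in both comparisons, averaged 1 or more in log2 CPM, and had the 6 RV/OFT libraries apart from the 3 whole-heart controls. Among these, the 10 largest rises began with 4 unnamed gene models, AL837506.2, AC131780.9, AC131780.7 and AL837506.1, which had 0 reads in the whole-heart controls. AL837506.2 had 567, 4.21 and 9.22 CPM in the labelled controls and 310, 566 and 37.1 in the labelled mutants. Against a floor of 3 reads over the whole-heart control group its group mean was at least 7110-fold higher in the labelled controls and at least 11200-fold higher in the labelled mutants. The labelled-control means of the other 3 were at least 6720-, 1010- and 645-fold higher. In all 4 models replicate 1 was far above the other labelled controls, so these folds do not hold for each library. The 4 models had 0 or 1 reads in the whole-heart mutants, so they passed the filter on low counts only through RV/OFT. Of their 31-base words 41.2% to 89.6% also occur in another gene, so their levels are uncertain. AC135639.1 (5.30), Bclp2 (3.45) and 5330416C01Rik (3.30) were also among the 10. AC135639.1 (mm9 chr7:144426366-144434292, + strand) lies within the span of Ebf3 (chr7:144385404-144506128, - strand), another of the 10. Because strand use in counting is not known, its level is uncertain. Whether its reads came from Ebf3 was not tested.

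Nefm, a neurofilament of which 19.2% of the exonic length lies opposite another gene, had 6.59, 6.32 and 3.61 CPM in the labelled controls, 1.14, 3.72 and 3.02 in the labelled mutants, 0.351, 0.491 and 0.517 in whole-heart controls and 0.65, 1.71 and 1.25 in whole-heart mutants (log2 fold change 3.62, SE 0.31, adjusted p = 7.31e-05). Ntrk3, a neurotrophin receptor, had 7.56, 17.2 and 6.66, 2.57, 6.11 and 8.96, 0.421, 1.33 and 0.943 and 0.05, 1.58 and 0.332 CPM in that order (log2 fold change 3.58, SE 0.46, adjusted p = 0.00039). Ebf3, a transcription factor, had 30.2, 111 and 63.6, 9.98, 30 and 37.1, 4.77, 7.2 and 6.51 and 5.15, 8.17 and 5.76 CPM (log2 fold change 3.49, SE 0.41, adjusted p = 0.000264). The RV/OFT and whole-heart ranges of Nefm overlapped through the labelled mutants. In Ntrk3 and Ebf3 labelled-control replicate 2 was again the highest library, and every RV/OFT library was above every whole heart.

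Of the 10 largest falls Vsnl1 and Shox2 belong to the pacemaker list and have been described. Tmem184a, a membrane protein, had 0.602, 0.345 and 0.632 CPM in the labelled controls, 1.53, 2.61 and 1.07 in the labelled mutants, 22.3, 16.2 and 8 in whole-heart controls and 14, 4.05 and 7.23 in whole-heart mutants (log2 fold change -4.86, SE 0.41, adjusted p = 6.9e-05). Rhd, a blood group protein of red cells, had 7.26, 2.07 and 9.19, 20.3, 22 and 10.9, 96.6, 124 and 88.6 and 102, 9.89 and 19.1 CPM in that order and was not called without shared libraries (-1.29, adjusted p = 0.231). Ano2 (-4.78, and -0.23 without shared libraries) and Rnf212 (-4.14, and 0.17) were not called without shared libraries either. Sgca, alpha-sarcoglycan of the dystrophin complex, had 0.669, 0.345 and 0.335 CPM in the labelled controls, 8.15, 5.36 and 4.49 in the labelled mutants, 10.7, 9.08 and 9.28 in whole-heart controls and 1.3, 1.14 and 1.8 in whole-heart mutants, so it was lower in RV/OFT against the whole-heart controls (-4.39 and -0.68) and higher against the whole-heart mutants (2.10). The remaining 3 falls, AC141641.1, RP23-282N17.2 and AL626805.2, are gene models of which 67.4%, 44.5% and 35.8% of the 31-base words occur in another gene, and AC141641.1 had 2.06, 42.5 and 44.3 CPM in the whole-heart controls.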

How the data were processed

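RNA-seq was analysed in 12 E11.5 libraries of 20 in the series. According to the submitters' processing notes and the study's methods, RNA was extracted with a column kit, amplified and sequenced, reads were aligned to mm9 with TopHat2 2.0.8b and fragments were counted with featureCounts. The deposited values were raw counts per gene and FPKM, which the authors computed with USeq. Gene lengths came with the table, and 20 columns of variance-corrected values were not used. The sources differ on the instrument, and do not say whether strand was counted.

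Genes with too few counts for filterByExpr over the 12 libraries were left out (18212 of 33495 tested). Counts were scaled by TMM and tested with the edgeR 4.0.16 quasi-likelihood F test in R 4.3.3, 2-sided, with Benjamini-Hochberg adjustment at 0.05, separately for each comparison. SE is the log2 fold change over the root of F. CPM are after TMM. FPKM were tested with limma 3.58.1 (limma-trend) on log2(FPKM + 0.1), and DESeq2 1.42.0 was an alternative. Other alternatives were another scaling, other filters, 1 fit of all 4 groups, the replicate number as a block, sex, a required fold of 1.5, thinning to 25001020 counts, length and GC offsets (GC added after seeing the data, for 82.9% of the tested genes), removal of abundant genes, and leaving out each library. Scripts were tested on simulated data. Same-numbered libraries did not deviate together (correlations -0.0166 to 0.0924), so numbers were not taken as pairs.

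Groups were taken from sample titles. The members and lists were chosen with earlier results of these data known (320 of 321 list symbols matched). Genes were named by role anchors, by the up to 4 largest changes per list among genes called in both comparisons, and by the 10 largest rises and falls among those averaging 1 or more in log2 CPM whose 6 RV/OFT libraries were apart from the 3 whole-heart controls. Values of some single list members are not reported here.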

Additional observations from a re-analysis of the deposited data

Results flagged for a closer look

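In 2 of 98 named genes every labelled-control RV/OFT library lay on 1 side of the whole-heart controls and every labelled-mutant RV/OFT library on the opposite side of the whole-heart mutants. The difference between the 2 comparisons was not tested. For Rspo3, a Wnt agonist, the log2 fold change was -0.39 in the labelled controls and 1.10 in the labelled mutants. For Sgca, alpha-sarcoglycan, it was -4.39 and 2.10.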

How the results depend on the processing

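The 3 libraries per group limited every count. Of the alternative values of single named genes, 1866 kept their direction and side of the threshold, 82 were weaker, 17 stronger and 27 reversed. The reversed values were all of the labelled-control comparison, in genes not called in it. Of these genes Kmt2d, Hand2 and Myh11 were called in other comparisons.

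A required fold of 1.5 gave 4288 genes in the labelled controls, 3319 in the labelled mutants, 3226 without shared libraries, 4222 for 6 against 6 libraries and 2519 called in both comparisons. With sex as a covariate 3450 were called in the labelled mutants and 3065 in both. Leaving out 1 library gave 5354 to 5887 genes in the labelled controls, 5001 to 6299 in the labelled mutants, 3208 to 6385 without shared libraries (3561, 3208 and 3330 without labelled-mutant replicates 1, 2 and 3), 8112 to 9278 for 6 against 6 and 4118 to 4585 in both. With the replicate number as a block the counts were 6526, 7281, 5162 and 9239, and 5134 in both; in 6 of 9 pairings of an RV/OFT library with a whole-heart group the best match had its own number. Over the settings, 50.4% to 98.7% of the genes called in both were shared.

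Reversed values were, for Hand2, -0.00508 with at least 1 count, -0.0377 after thinning and, over all libraries left out in turn, -0.113 to 0.153. For Tnnt2 they were 0.0108 with at least 10 counts, 0.223 on FPKM with either pseudocount, 0.0384 with sex, 0.199 with length offsets, 0.166 with GC offsets and -0.186 to 0.137 on leaving out a library. For Kmt2d they were 0.00866 with at least 10 counts, 0.00200 with the block, 0.230 and 0.209 on FPKM with pseudocounts of 0.1 and 1, 0.185 with GC offsets and -0.115 to 0.0762 on leaving out a library. For Myh11 they were 0.138 and 0.0679 on FPKM, 0.0149 with GC offsets and -0.380 to 0.104 on leaving out a library. The cause was not tested.

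Among the lists, the hypoxia-induced count higher in the labelled controls was 17 with all genes of at least 1 count and 18 with sex, and erythroid medians without shared libraries were 0.52 without whole-heart mutant replicate 1. The pacemaker count lower in the labelled controls was 5 on FPKM. No atrial count moved by more than 1.5 times.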
